A study of Mus musculus with 12 samples.

Results

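Mouse chromosome 9 was mapped for contact with the nuclear lamina in preimplantation embryos, as the 1215 bins of 100 kb between the first start and the last end of a lamina-associated domain (LAD) on it in any of 4 deposited LAD lists (chr9:3000001-124500000, build mm10). These bins are 5.09% of the 23849 bins that the same rule gives on the 19 autosomes. Chromosome 9 was chosen by the measured LAD coverage, since embryos given an siRNA against Rif1 exceeded controls at the 4-cell stage by more there than on any other autosome, with 21.8 percentage points against 21.0 on chromosome 3, the next. That difference is therefore given as a description. The study used LaminB1 DamID, in which Dam, a bacterial enzyme that methylates adenines, is tethered to lamin B1 and marks DNA at the nuclear rim. The 4 groups were siRif1 8-cell, siControl 8-cell, siRif1 4-cell and siControl 4-cell embryos, all of the genotype (C57BL/6J xCBA) x DBA/2J, with 3 replicates each and 16 to 24 pooled blastomeres a replicate (2 to 3 embryos of 8 cells, or 4 to 6 embryos of 4 cells). All groups received siRNA at 20 µM as zygotes and, as late 2-cell embryos, an injection of AID-Dam-LaminB1 at 20 ng/µL, Tir1 at 250 ng/µL and membrane-eGFP at 100 ng/µL, followed by culture in auxin (500 µM) that was washed out before collection, so the controls carried every agent except the siRNA against Rif1. The injected fusion reports contacts over the hours after auxin was withdrawn, at 66 h after hCG for 8-cell and 54 h for 4-cell embryos.

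The nuclear lamina is a meshwork of lamins under the inner nuclear membrane, and the chromatin that touches it is in most cells gene-poor, late-replicating and little transcribed. LADs are set up anew after fertilization and are rearranged during the first cleavages. RIF1 is a chromatin protein that recruits protein phosphatase 1 and holds back the firing of replication origins in late-replicating domains. Mouse chromosomes carry the centromere at the end where coordinates begin, so low coordinates on chromosome 9 are close to the centromere.

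Promoter sequences are shown for 7 genes that serve below as examples of different placements at the lamina, from LAD in every list to LAD in none. Each is the 250 bases before a transcript start of the gene in RefSeq (GRCm38.p6), 5′ to 3′ on the gene's strand, which at Opcml and Drd2 is a start inside the annotated gene, with every CpG dinucleotide in capitals. Opcml (chr9:27791049-27791298, + strand) encodes a neuronal cell adhesion molecule, and its midpoint was LAD in all 4 lists, while the start shown lay outside LADs in siControl 8-cell embryos. Gria4 (chr9:4796235-4796484, - strand), an AMPA-type glutamate receptor subunit, was LAD in all lists but siControl 4-cell. Cntn5 (chr9:10904776-10905025, - strand), a contactin adhesion molecule of neurons, was LAD by its midpoint in both siRif1 lists, and its start lay in LADs of the siRif1 4-cell list alone. Drd2 (chr9:49340153-49340402, + strand), the D2 dopamine receptor, was LAD in siControl 8-cell and siRif1 4-cell embryos. Cyp19a1 (chr9:54268165-54268414, - strand), the aromatase that makes oestrogens, was outside LADs in siControl 8-cell embryos alone. Ctnnb1 (chr9:120933150-120933399, + strand), β-catenin, was outside LADs in every list, and Olfr850 (chr9:19478249-19478498, - strand), an olfactory receptor, was LAD in all but siControl 4-cell.
Opcml: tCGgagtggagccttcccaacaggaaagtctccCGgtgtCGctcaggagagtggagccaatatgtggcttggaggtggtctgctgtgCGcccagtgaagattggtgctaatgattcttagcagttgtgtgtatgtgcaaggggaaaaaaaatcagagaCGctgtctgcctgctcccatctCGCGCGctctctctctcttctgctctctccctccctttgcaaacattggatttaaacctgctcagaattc
Gria4: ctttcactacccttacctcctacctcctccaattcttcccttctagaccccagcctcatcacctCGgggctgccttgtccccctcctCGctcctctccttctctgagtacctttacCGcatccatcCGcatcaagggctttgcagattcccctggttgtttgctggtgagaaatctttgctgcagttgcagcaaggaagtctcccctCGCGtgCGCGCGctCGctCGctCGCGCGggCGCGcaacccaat
Cntn5: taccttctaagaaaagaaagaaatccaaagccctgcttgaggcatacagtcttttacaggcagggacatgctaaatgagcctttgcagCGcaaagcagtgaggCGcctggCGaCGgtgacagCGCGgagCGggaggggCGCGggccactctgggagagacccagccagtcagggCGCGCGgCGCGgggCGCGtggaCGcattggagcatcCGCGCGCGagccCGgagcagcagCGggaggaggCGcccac
Drd2: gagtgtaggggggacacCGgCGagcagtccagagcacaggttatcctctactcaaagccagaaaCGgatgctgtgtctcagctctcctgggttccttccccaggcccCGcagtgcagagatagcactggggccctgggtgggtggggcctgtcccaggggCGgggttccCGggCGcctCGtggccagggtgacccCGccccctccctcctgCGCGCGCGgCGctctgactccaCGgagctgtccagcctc
Cyp19a1: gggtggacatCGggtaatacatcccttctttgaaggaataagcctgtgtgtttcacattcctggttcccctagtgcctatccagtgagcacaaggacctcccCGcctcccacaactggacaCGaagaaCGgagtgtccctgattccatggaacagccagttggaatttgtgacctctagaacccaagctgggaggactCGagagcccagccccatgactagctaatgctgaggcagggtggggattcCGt
Ctnnb1: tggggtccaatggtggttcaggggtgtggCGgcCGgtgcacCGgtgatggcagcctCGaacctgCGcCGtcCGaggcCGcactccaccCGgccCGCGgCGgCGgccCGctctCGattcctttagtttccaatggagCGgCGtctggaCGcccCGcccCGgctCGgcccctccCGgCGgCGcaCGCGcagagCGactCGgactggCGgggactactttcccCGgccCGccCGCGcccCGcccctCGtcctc
Olfr850: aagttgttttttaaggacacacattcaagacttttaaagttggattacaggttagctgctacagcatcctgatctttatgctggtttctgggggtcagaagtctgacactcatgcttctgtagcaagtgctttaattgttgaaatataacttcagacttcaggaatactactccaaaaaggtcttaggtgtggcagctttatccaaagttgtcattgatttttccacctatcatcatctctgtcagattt

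These windows hold 8 CpG sites at Opcml, 16 at Gria4, 24 at Cntn5, 15 at Drd2, 6 at Cyp19a1, 35 at Ctnnb1 and 0 at Olfr850. The windows with 15 or more sites, at Gria4, Cntn5, Drd2 and Ctnnb1, belonged to genes with different places relative to the lamina. None of these genes was LAD in every list, and the examples were chosen after their values were seen. The median over the windows of the chromosome was 10 sites. The dinucleotide CG, which reads the same on both strands, was present in 91.0% of 1023 promoter windows of the chromosome and in 93.0% of 15100 windows on the other 18 autosomes.

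MicroRNA genes along the chromosome were found in the same kinds of region, and the mature sequences of 10 microRNAs at loci described below are shown, with the seed (bases 2 to 8) in capitals. They were taken from RefSeq (GRCm38.p6) and were chosen after their positions were seen. The seed of mmu-miR-34b-3p and mmu-miR-34c-3p is shared, and the other 8 seeds differ from it and from each other.
mmu-miR-100-5p: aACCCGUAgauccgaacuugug
mmu-let-7a-2-3p: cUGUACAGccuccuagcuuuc
mmu-miR-125b-5p: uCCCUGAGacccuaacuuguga
mmu-miR-128-3p: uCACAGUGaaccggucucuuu
mmu-miR-26a-5p: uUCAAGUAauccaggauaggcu
mmu-miR-190a-5p: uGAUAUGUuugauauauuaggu
mmu-miR-138-5p: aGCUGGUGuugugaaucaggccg
mmu-miR-34b-3p: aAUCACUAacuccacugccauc
mmu-miR-34c-3p: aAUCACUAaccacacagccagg
mmu-let-7g-5p: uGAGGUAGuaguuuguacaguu

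LADs covered 51.8% of the chromosome 9 span in siRif1 8-cell, 49.1% in siControl 8-cell, 66.2% in siRif1 4-cell and 44.4% in siControl 4-cell embryos. The siRif1 4-cell list therefore stood above the other 3, which lay closer to each other. Summed over the other 18 autosomes, the same lists covered 42.4%, 44.5%, 42.3% and 32.3%, so chromosome 9 lay above that sum in every list. The highest single autosome among these 18 had 56.2%, 55.5%, 56.7% and 49.6% in the same order. Chromosome 9 was thus the highest autosome in the siRif1 4-cell list only. Each list pools its 3 replicates and gives no reads or scores, so no spread between replicates and no test can be given for any difference here. Read depth is unknown, and the lists neither show whether calling was equally sensitive in each group nor check the knockdown.

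**Figure D1:**
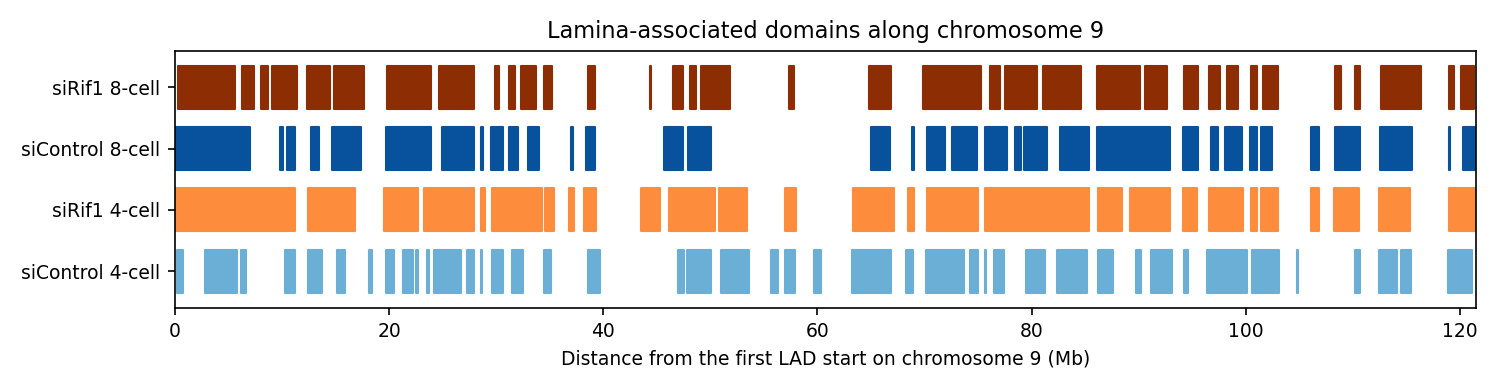
LADs of the 4 lists along chromosome 9, with distance in Mb from the first LAD start on the horizontal axis and each bar a LAD. The siRif1 4-cell row has 27 LADs, the longest of 11.2 Mb at the left end, where the siControl 4-cell row has 4 separate LADs.

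The lists differed in how LADs were divided as well as in total length. There were 35 LADs in siRif1 8-cell, 34 in siControl 8-cell, 27 in siRif1 4-cell and 43 in siControl 4-cell embryos, with median lengths of 1.2, 1.3, 2.5 and 0.9 Mb. LADs of 2 Mb or more held 73.8%, 68.0%, 87.3% and 57.3% of the LAD bases in the same order. Of the 27 siRif1 4-cell LADs, 10 touched 2 or more siControl 4-cell LADs, 26 of them in all, and 3 touched none. In the other direction, 27 of the 43 siControl 4-cell LADs lay wholly inside a siRif1 4-cell LAD, 39 had at least 50% of their length in LADs of that list, and 4 touched none.

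**Figure D2:**
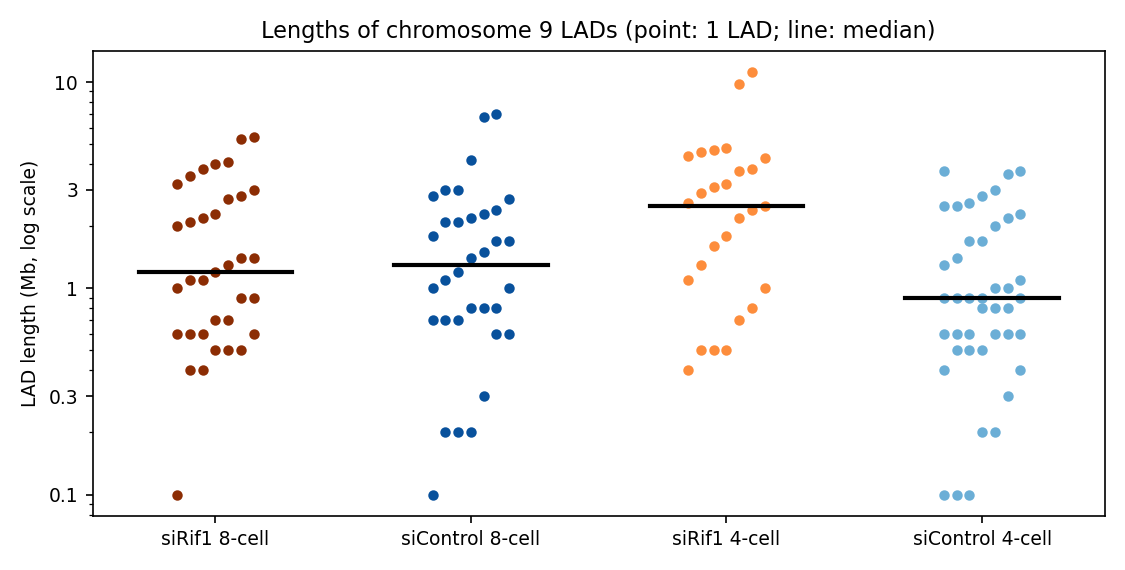
Length of each LAD on chromosome 9 in Mb on a log scale, by list, with a point for each LAD and a line at the median. The median line stands at 2.5 Mb in siRif1 4-cell embryos, against 0.9 to 1.3 Mb in the other 3 lists.

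The longest LAD was in the siRif1 4-cell list and ran over 11.2 Mb next to the centromere-side end of the span (chr9:3000001-14200000), with Cntn5, the Notch coactivator gene Maml2, Gria4 and the soluble guanylate cyclase gene Gucy1a2 as its longest genes. Of its length, 82.1% was LAD in siRif1 8-cell, 71.4% in siControl 8-cell and 43.8% in siControl 4-cell embryos. The next was the 9.8-Mb LAD at chr9:78600001-88400000, with the meiotic gene Mei4 and the actin-associated Filip1, of which 75.5%, 77.6% and 56.1% were LAD in the same 3 lists. In siRif1 8-cell embryos the longest LAD was chr9:72900001-78300000 (5.4 Mb) around Unc13c, a gene for synaptic vesicle priming, and in siControl 8-cell embryos it was chr9:3000001-10000000 (7 Mb). The siControl 4-cell list had no LAD over 3.7 Mb, a length reached at chr9:66200001-69900000 around the nuclear receptor gene Rora and at chr9:99400001-103100000 around the ephrin receptor gene Ephb1.

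At the 4-cell stage, 308 bins of chromosome 9 (25.3%) were LAD in siRif1 alone, where all autosomal bins gave 17.1%. LAD in siControl alone were 43 bins (3.54%), where all autosomal bins gave 6.51%. The rule used this contrast, so nothing is read from these shares. LAD in both lists were 496 bins, which is 61.7% of the siRif1 and 92.0% of the siControl LAD bins. On the other 18 autosomes, 60.6% and 79.4% were shared. Outside siControl LADs, 45.6% of the bins of chromosome 9 were LAD in siRif1 4-cell embryos, compared with 24.6% on the other 18.

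Gaps between siControl LADs made up most of the sequence that was LAD in siRif1 alone at the 4-cell stage. There were 41 such stretches with a total of 30.8 Mb, of which 16 filled a gap between 2 siControl LADs (16.8 Mb, 54.5%), 22 extended a siControl LAD at its border (11 Mb, 35.7%) and 3 were freestanding (3 Mb, 9.74%). On the other 18 autosomes filled gaps made up 22.8% of the corresponding bases, extensions 51.2% and freestanding stretches 26.0%. These stretches come from the contrast that chose the chromosome, so this comparison is a description. LADs of siControl 4-cell embryos also covered 44.4% of chromosome 9 and 32.3% of the other 18, and the shares were not adjusted for this. Of the 54 borders of siRif1 4-cell LADs, 32 (59.3%) lay within 200 kb of a border of the same side in the siControl list, whereas 32 of the 86 siControl borders (37.2%) had such a partner.

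The 5 longest stretches that were LAD in siRif1 alone at the 4-cell stage were mostly long intervals with few genes. The first filled a gap at chr9:9600001-13300000 (3.7 Mb) with Cntn5, Ccdc82 and Jrkl. It was 73.0% LAD in siRif1 8-cell and 18.9% LAD in siControl 8-cell embryos. The second filled a gap at chr9:80400001-82500000 (2.1 Mb) with Mei4 and Htr1b, a serotonin receptor gene, and was 95.2% LAD in siRif1 8-cell and 52.4% in siControl 8-cell embryos. The third, at chr9:3800001-5800000 (2 Mb), held 7 genes, among them Gria4, Casp4, Casp12 and Kbtbd3, and was wholly LAD in both 8-cell lists. The fourth extended a LAD at chr9:111200001-113200000 (2 Mb) over the neuronal genes Arpp21 and Stac with Trank1 and Dclk3, and the 8-cell lists covered 30.0% of it in siRif1 and 95% in siControl embryos. The fifth, at chr9:35500001-37300000 (1.8 Mb), differed in holding 28 genes, among them the homeobox gene Pknox2, Fez1 and Stt3a, of which the 8-cell lists covered 66.7% in siRif1 and 55.6% in siControl embryos. A stretch of the same length at chr9:46500001-48300000 was freestanding, held the adhesion gene Cadm1, and was 5.56% LAD in siRif1 8-cell and 0% in siControl 8-cell embryos.

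Regions that were LAD in siControl alone at the 4-cell stage were short. They formed 18 stretches with a total of 4.3 Mb and a longest length of 0.6 Mb, which occurred at chr9:58700001-59300000 with the pacemaker channel gene Hcn4, the guidance receptor gene Neo1 and the meiotic gene Rec114, and at chr9:62700001-63300000 with the integrin gene Itga11, the kinase gene Map2k5 and the SUMO ligase gene Pias1. The other 3 of the longest 5 were 0.4 Mb each, at chr9:42300001-42700000 with Tecta, chr9:102700001-103100000 with the Wnt receptor gene Ryk, and chr9:104000001-104400000 with Dnajc13 and Acad11. None of these 5 had a LAD bin in either 8-cell list.

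Seen in windows of 10 Mb from the start of the span, the difference at the 4-cell stage was spread unevenly. The first window, next to the centromere, was covered to 80.0% in siRif1 8-cell, 72.0% in siControl 8-cell, 100% in siRif1 4-cell and 40.0% in siControl 4-cell embryos. From chr9:23000001 to chr9:53000000 the siRif1 4-cell list lay 27 to 34 points above siControl 4-cell in each of 3 windows. In the next 2 windows, from chr9:53000001 to chr9:73000000, it lay 5 and 3 points below, with 40.0% and 43.0% in siRif1 and 45.0% and 46.0% in siControl 4-cell embryos. Both 8-cell lists had little LAD there, 23.0% and 22.0% in siRif1 and 1.00% and 20.0% in siControl embryos. From chr9:73000001 to chr9:93000000 the siRif1 4-cell list was again higher, by 33 and 27 points.

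**Figure D3:**
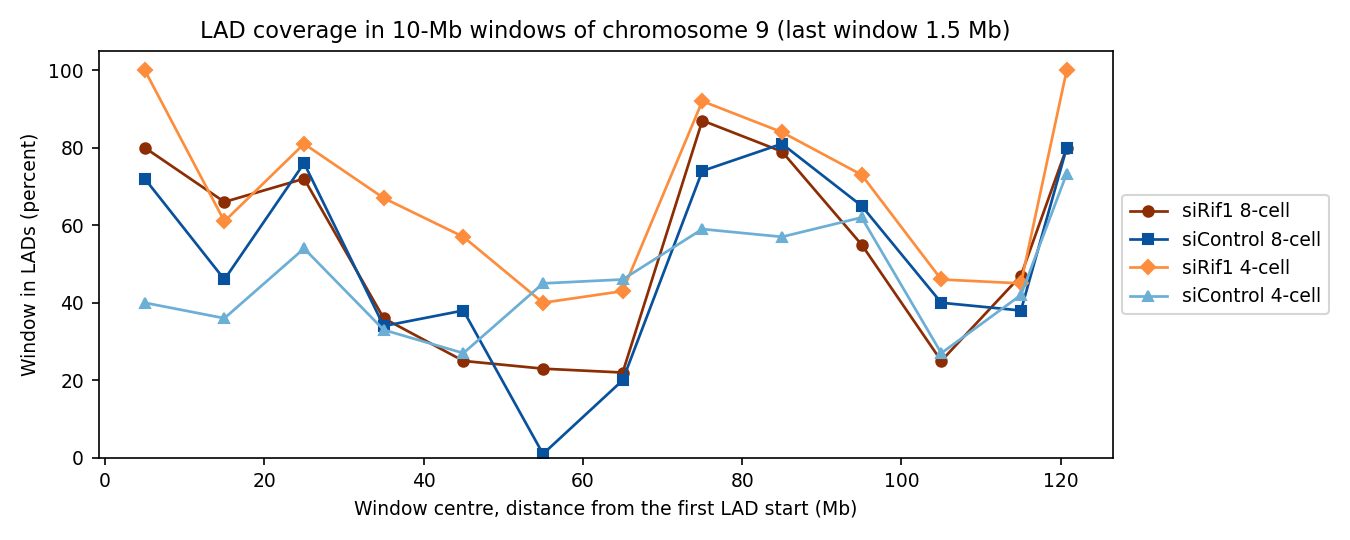
Percent of each 10-Mb window of chromosome 9 in LADs, by list, against the window's centre as distance in Mb from the first LAD start, with a line for each list and a point for each window. The siControl 8-cell line is at 1.00% in the sixth window, where siRif1 8-cell has 23.0%, siRif1 4-cell 40.0% and siControl 4-cell 45.0%.

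At the 8-cell stage the lists of chromosome 9 were closer to each other. There, 142 bins were LAD in siRif1 embryos only (11.7%, where all autosomal bins gave 11.4%) and 110 in siControl embryos only (9.05%, where all gave 13.3%). In both lists 487 bins were LAD. The first of these shares is near that of the autosomes as a whole. Coverage was 2.63 points higher in siRif1 than in siControl embryos, the fifth highest difference among the autosomes, which ranged from 9.43 points on chromosome 6 down to -20.1 on chromosome 19.

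**Figure D4:**
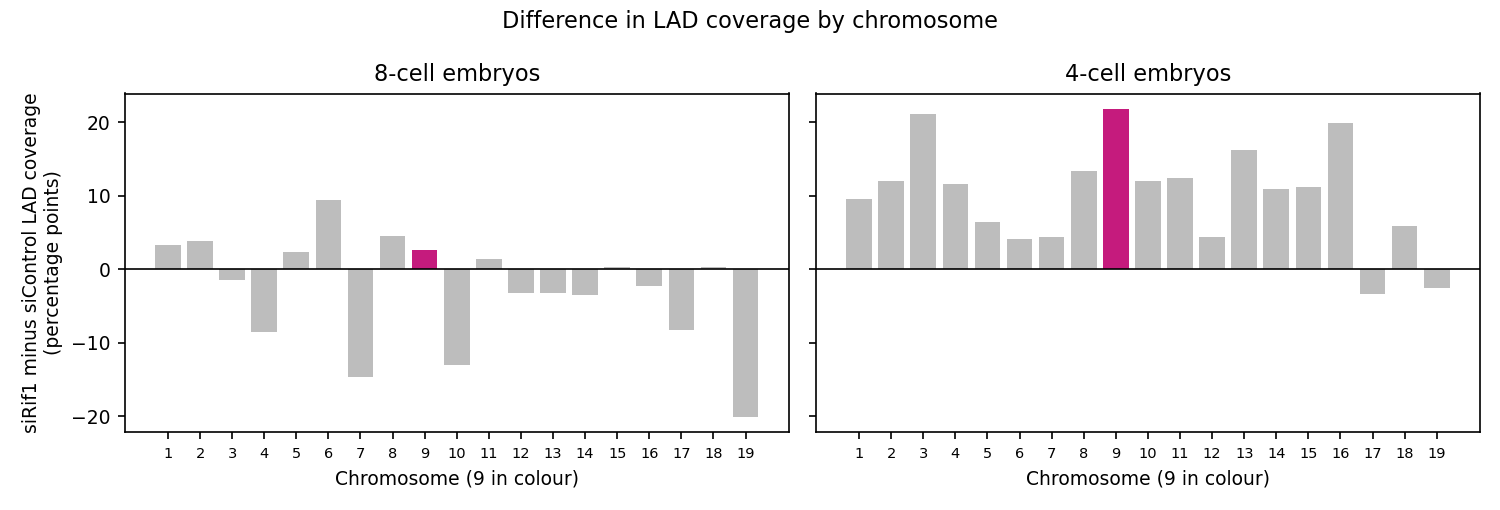
Difference in LAD coverage, siRif1 minus siControl, in percentage points for each autosome, at the 8-cell stage (left) and the 4-cell stage (right), with chromosome 9 in colour. Chromosome 9 stands at 2.63 points at the 8-cell stage and at 21.8 points, the highest bar, at the 4-cell stage.

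Among stretches found in LADs of siRif1 8-cell but not siControl 8-cell embryos, the longest spanned 1.7 Mb (chr9:53100001-54800000) and held 23 genes, among them Cyp19a1, the RNA helicase gene Ddx10, the synaptic gene Dmxl2 and Atm, a kinase of the DNA damage response. It was 76.5% LAD in siRif1 4-cell and 47.1% in siControl 4-cell embryos. Atm itself was wholly in LADs of the siRif1 8-cell list and 0% in the other 3. Next in length were chr9:84400001-85600000 (1.2 Mb) with Tent5a, chr9:16500001-17500000 (1 Mb) without a protein-coding gene, and chr9:118500001-119400000 (0.9 Mb) with 13 genes, among them the integrin gene Itga9 and the phosphatase gene Ctdspl. The last of these was LAD in no other list, and Itga9 and Ctdspl were 100% LAD in siRif1 8-cell embryos and 0% in the other 3 lists. Among the shorter ones were chr9:11000001-11700000 (0.7 Mb) without a gene and, equally long, chr9:37500001-38200000 with 24 genes.

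LAD in siControl 8-cell and not in siRif1 8-cell embryos was first the 1.3-Mb interval chr9:111900001-113200000 with Arpp21, a neuronal RNA-binding phosphoprotein gene. Arpp21 was 0% in LADs in siRif1 8-cell, 100% in siControl 8-cell, 100% in siRif1 4-cell and 0% in siControl 4-cell embryos. The next were chr9:48700001-49500000 (0.8 Mb) with Drd2, the transcription factor gene Zbtb16, Usp28 and Ttc12, and chr9:87600001-88400000 (0.8 Mb) with the T-box gene Tbx18 and the ectonucleotidase gene Nt5e. Then came chr9:8600001-9300000 (0.7 Mb) with Arhgap42, the cation channel gene Trpc6 and the progesterone receptor gene Pgr. Pgr was wholly LAD in siControl 8-cell and in siRif1 4-cell embryos and outside LADs in siRif1 8-cell and siControl 4-cell embryos. A freestanding stretch of 0.7 Mb at chr9:109100001-109800000 held 16 genes, 15 of the Fbxw family and the plexin gene Plxnb1.

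Between stages, control embryos differed on chromosome 9 in both directions. There were 218 bins LAD at the 8-cell stage alone (17.9%, against 20.3% of all autosomal bins) and 160 at the 4-cell stage alone (13.2%, against 8.52%). Coverage was 4.77 points higher at the 8-cell stage, which ranks 16 of 19 among the autosomes. The longest stretches LAD in siControl 8-cell embryos alone were chr9:90600001-92700000 (2.1 Mb) with the neural genes Zic1 and Zic4 and the collagen-modifying Plod2, and chr9:3800001-5800000 (2 Mb) with Gria4 and the caspase genes. They were followed by chr9:111300001-113200000 (1.9 Mb) with Arpp21, chr9:18900001-20400000 (1.5 Mb) with 33 genes, most of them olfactory receptors, and chr9:48700001-50000000 (1.3 Mb) with Ncam1, a neural adhesion gene. This comparison and that of the 4-cell groups share the siControl 4-cell list, so a bin missing from that list appears in both.

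The 160 bins that were LAD in siControl 4-cell and not in siControl 8-cell embryos formed 31 stretches. The longest was chr9:54000001-56600000 (2.6 Mb, 31 genes, among them Scaper, Peak1 and Dmxl2), followed by chr9:66200001-68000000 (1.8 Mb, 16 genes, among them the talin gene Tln2 and the ubiquitin ligase gene Herc1) and chr9:122100001-123300000 (1.2 Mb, 19 genes, among them Ano10 and Kif15). Shorter were chr9:60000001-60900000 (0.9 Mb) with Thsd4 and chr9:27200001-27900000 (0.7 Mb) with Igsf9b. The first 3 were 92.3%, 94.4% and 100% LAD in siRif1 4-cell embryos, and 30.8%, 11.1% and 41.7% in siRif1 8-cell embryos.

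The stage comparison in siRif1 embryos uses the siRif1 4-cell list, whose high coverage on chromosome 9 is part of what chose the chromosome, so its direction is partly fixed by that choice and is a description. There were 51 bins LAD at the 8-cell stage alone (4.20%, against 13.0% of all autosomal bins) and 226 at the 4-cell stage alone (18.6%, against 13.6%). The coverage difference, 8-cell minus 4-cell, was -14.4 points, which ranks 18 of 19. All 35 siRif1 8-cell LADs had at least 50% of their length in siRif1 4-cell LADs, and 24 lay wholly inside them. LAD at the 4-cell stage alone were first chr9:54800001-56400000 (1.6 Mb, Scaper and Peak1), chr9:66300001-67800000 (1.5 Mb, Tln2 and Herc1) and chr9:111900001-113200000 (1.3 Mb, Arpp21). The longest LAD at the 8-cell stage alone was chr9:118300001-119400000 (1.1 Mb) with Itga9 and Ctdspl, followed by chr9:19800001-20700000 (0.9 Mb) with 22 genes, among them the zinc finger genes Zfp560, Zfp26, Zfp266 and Zfp426.

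Over the 4 lists, 328 bins (27.0%) were LAD in every list and 315 (25.9%) in none, compared with 16.6% and 35.2% of the bins on the other 18 autosomes. Both classes depend on the 4-cell lists, whose difference chose the chromosome, so this comparison is a description. The bins in every list formed 39 runs with a median of 0.7 Mb. The longest were chr9:5800001-8600000 (2.8 Mb, 20 genes, among them the growth factor gene Pdgfd, the dynein gene Dync2h1 and Yap1, the effector of the Hippo pathway) and chr9:85600001-87600000 (2 Mb, with Snap91 and Me1). Further runs held Opcml and Ntm (chr9:27900001-29700000), Rora (chr9:68000001-69800000), Unc13c and Onecut1 (chr9:73200001-74900000) and Slc9a9 (chr9:94100001-95600000). The bins in no list formed 26 runs, the longest of 3.8 Mb at chr9:42700001-46500000 with 73 genes, among them Grik4, Dscaml1 and Sik3, and of 2.9 Mb at chr9:63300001-66200000 with 45 genes.

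The 308 bins that were LAD in siRif1 alone at the 4-cell stage fell into 4 classes at the 8-cell stage. In both 8-cell lists 134 of them (43.5%) were LAD, 60 (19.5%) in siRif1 alone, 55 (17.9%) in siControl alone and 59 (19.2%) in neither. The 3772 such bins on the other 18 autosomes divided in similar shares, 48.4%, 15.2%, 17.2% and 19.1%. Of the 43 bins that were LAD in siControl 4-cell alone, 39 (90.7%) were LAD in neither 8-cell list, compared with 747 of 1510 (49.5%) on the other 18. Bins that were LAD at the 8-cell stage alone were few on chromosome 9. LAD in both 8-cell lists and in no 4-cell list were 1.89% of its bins, compared with 4.97% on the other 18, and LAD in siControl 8-cell alone were 0.494% compared with 4.52%. LAD in both siControl lists and in neither siRif1 list were 0 bins of chromosome 9 and 268 bins elsewhere. All of these classes depend on the 4-cell lists, whose difference chose the chromosome. Their comparison with the other 18 autosomes is therefore a description.

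**Figure D5:**
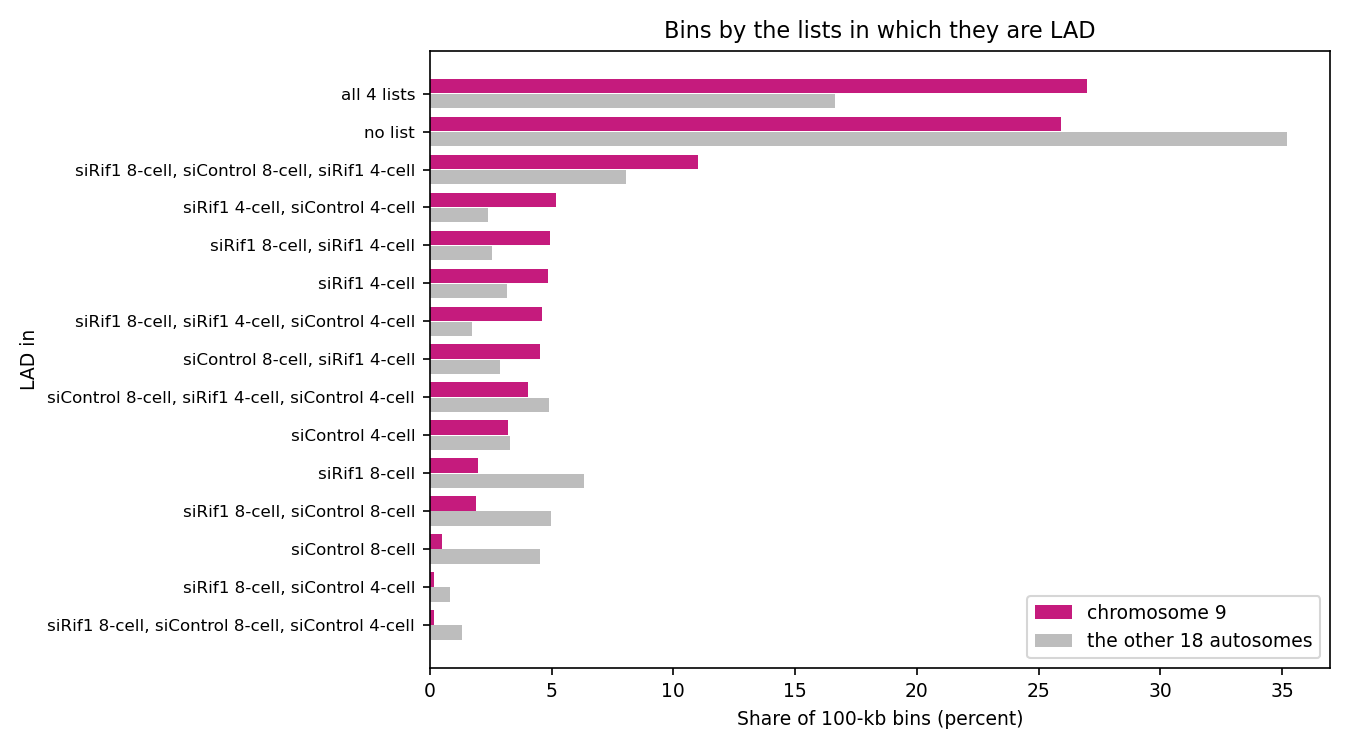
Share of 100-kb bins in percent for each combination of lists in which a bin was LAD and that was found on chromosome 9, on chromosome 9 (coloured bars) and on the other 18 autosomes (grey bars). Bins in all 4 lists make up 27.0% of chromosome 9 and 16.6% of the other autosomes, and bins in no list 25.9% and 35.2%. All classes depend on the 4-cell lists, whose difference chose the chromosome, so the comparison is a description.

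Of the 1201 protein-coding genes in the span, placed by their midpoint, 362 (30.1%) were in LADs in siRif1 8-cell, 295 (24.6%) in siControl 8-cell, 477 (39.7%) in siRif1 4-cell and 351 (29.2%) in siControl 4-cell embryos. At the 4-cell stage 181 genes were LAD in siRif1 only (15.1%, where all autosomal genes gave 7.37%) and 55 in siControl only (4.58%, where all gave 8.08%). The rule used this contrast, so these 4-cell shares largely restate the choice of chromosome and are a description. At the 8-cell stage the counts were 142 in siRif1 only (11.8%, where all gave 7.33%) and 75 in siControl only (6.24%, where all gave 9.37%). Between stages, 127 genes were LAD in siControl 8-cell alone (10.6%, against 11.2%) and 183 in siControl 4-cell alone (15.2%, against 9.59%). In siRif1 embryos 70 were LAD at the 8-cell stage alone (5.83%, against 8.83%) and 185 at the 4-cell stage alone (15.4%, against 8.58%). The gene lists below were chosen with earlier results of these data known, and their counts are to be read beside these shares.

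Olfactory receptor genes, which encode the odorant receptors of sensory neurons, form a pair of clusters on chromosome 9 with different placements. In the cluster at chr9:18754692-20336094, with 35 genes from Olfr24 to Olfr18, all 35 were LAD in siRif1 8-cell and in siControl 8-cell embryos, 21 in siRif1 4-cell and 4 in siControl 4-cell embryos. In the cluster at chr9:37711348-40188094, with 95 genes from Olfr160 to Olfr986, LADs held 16 genes in siRif1 8-cell, 8 in siControl 8-cell, 40 in siRif1 4-cell and 12 in siControl 4-cell embryos. The first cluster thus had the most LAD genes at the 8-cell stage and the second in siRif1 4-cell embryos. Of all 130 genes, 45 were within LADs of siRif1 4-cell but not siControl 4-cell embryos and 0 the other way, 4 were LAD in every list and 55 in none. Neighbouring receptor genes share a LAD, so these counts reflect few domains. Their promoter windows had a median of 1 CpG site, and 54 of 109 had none, compared with a median of 12 and 38 without a CpG among 914 windows of other genes.

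Zinc finger genes of the Zfp series, many of which encode KRAB repressors, lay partly beside the first olfactory cluster. Of 6 between Zfp317 and Zfp846 (chr9:19622038-20605404), 6 were LAD in siRif1 8-cell, 2 in siControl 8-cell, 1 in siRif1 4-cell and 0 in siControl 4-cell embryos. The 5 from Zfp653 to Zfp810 (chr9:22055411-22307814) were outside LADs in every list, Zfp809, a silencer of retroviruses, among them. In all, 7 of the 20 were LAD in siRif1 8-cell, 3 in siControl 8-cell, 6 in siRif1 4-cell and 4 in siControl 4-cell embryos.

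Clusters of immune and matrix genes were placed as blocks. The 10 matrix metalloproteinase genes from Mmp13 to Mmp7 (chr9:7272514-7699585), secreted enzymes that cut the extracellular matrix, were LAD in all 4 lists. Closer to the centromere, at chr9:5298517-5373034, lay the 3 inflammatory caspase genes Casp1, Casp4 and Casp12. These caspase genes were LAD in both 8-cell lists and in siRif1 4-cell embryos, and outside LADs in siControl 4-cell embryos. Among chemokine receptor genes, Ccr9, Cxcr6, Xcr1, Ccr1, Ccr1l1 and Ccr3 were LAD in all 4 lists, and Ccr2 in all but siControl 4-cell. Ccrl2, Cx3cr1 and Ccr8, and the 4 apolipoprotein genes Apoa1, Apoc3, Apoa4 and Apoa5 were in no list. Of 7 serine protease genes named Prss, Prss35 was LAD in every list and the 6 from Prss42 to Prss50 were in none.

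Listed adhesion genes, most of them neuronal, were LAD in 6 of 15 cases in siRif1 8-cell, 5 in siControl 8-cell, 9 in siRif1 4-cell and 4 in siControl 4-cell embryos. At the 4-cell stage Cntn5, Jam3, Cadm1, Ncam1 and Clstn2 were LAD in siRif1 alone and none in siControl alone. Cntn5 was in LADs over 60.3% of its length in siRif1 8-cell, 28.8% in siControl 8-cell, 100% in siRif1 4-cell and 0% in siControl 4-cell embryos. It is the longest gene of the chromosome (1271 kb) and was the one among the 10 longest with no LAD base in siControl 4-cell embryos. Opcml, Ntm, Rora, the cadherin gene Fat3, Slc9a9 and Kirrel3, also among these 10, were LAD by midpoint in every list, Rbms3 and Clstn2 in all but siControl 4-cell, and Thsd4 in both 4-cell lists alone. By length, Rbms3 was still 62.2% and Clstn2 26.4% LAD in siControl 4-cell embryos, and Thsd4 was 40.0% LAD in siRif1 8-cell embryos. Hepacam, Robo3, Robo4, Nectin1, Thy1 and Dscaml1 were in no list.

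Neurotransmitter receptor and ion channel genes were LAD in 4 of 23 cases in siRif1 8-cell, 9 in siControl 8-cell, 11 in siRif1 4-cell and 8 in siControl 4-cell embryos. At the 4-cell stage Gria4, Htr1b, Drd2 and the sodium channel subunit gene Scn3b were LAD in siRif1 alone and Hcn4 in siControl alone. At the 8-cell stage Drd2, Trpc6, Trpc1 and the serotonin receptor genes Htr3a and Htr3b were LAD by midpoint in siControl and not in siRif1 embryos, and none the other way. By length, Trpc6 was also partly LAD in siRif1 8-cell embryos, where a LAD ended inside it at chr9:8600000. The nicotinic receptor genes Chrna5, Chrna3 and Chrnb4, which form a cluster, were LAD in both 4-cell lists and in neither 8-cell list. The sensory neuron sodium channel genes Scn10a and Scn11a were in no list.

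Developmental regulators were LAD in 9 of 23 cases in siRif1 8-cell, 11 in siControl 8-cell, 12 in siRif1 4-cell and 10 in siControl 4-cell embryos. Eomes, a T-box regulator of the trophectoderm, was LAD in both 8-cell lists and in neither 4-cell list. In control embryos this rested on 1 bin of 100 kb (chr9:118400001-118500000) directly beside a siControl 4-cell LAD. In siRif1 embryos Eomes lay in the longer stretch with Itga9 and Ctdspl. At the 4-cell stage Zic1, Zic4 and Barx2 were found in siRif1 LADs only. At the 8-cell stage Cdon, a Hedgehog co-receptor gene, was LAD in siRif1 alone, and Ets1, Zbtb16 and Tbx18 in siControl alone. Tbx20, Rora, Onecut1, Bmp5 and the TGF-β receptor gene Tgfbr2 were LAD in every list, and Fli1, Pou2f3, Nr2e3, Tle3, Smad3, Smad6, Foxl2 and Ctnnb1 in none.

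Of all 1201 genes of the chromosome, 598 (49.8%) were in no list, a share beside which the following counts are to be read. Of 8 ribosomal protein genes, 7 were in no list and Rps27l was LAD in both 4-cell lists alone, as was the proteasome subunit gene Psma4. The complex I assembly gene Ndufaf3 was in no list. Of 14 genes of replication and the DNA damage response, 10 were in no list, among them Dnmt1, the maintenance DNA methyltransferase, Topbp1 and H2ax. Atm was LAD in siRif1 8-cell alone, and the checkpoint kinase gene Chek1 in siControl 8-cell and siRif1 4-cell embryos. By its midpoint, the kinase gene Atr was LAD in siControl 4-cell alone. By length, Atr was also partly LAD in siControl 8-cell and siRif1 4-cell embryos, where a LAD ended inside it at chr9:95900000. Of 10 oocyte and early embryo genes, 8 were in no list, among them Ooep of the subcortical maternal complex, Dppa5a and Trim43a. Khdc3, a further gene of that complex, was LAD in siRif1 8-cell and siControl 4-cell embryos. Of 3 glutathione transferase genes, Gsta1 and Gsta4 were LAD in siRif1 8-cell alone and Gsta2 in no list. Of 5 cytochrome P450 genes, Cyp19a1 was LAD in all but siControl 8-cell, Cyp8b1 in siControl 4-cell alone, and Cyp1a1, Cyp1a2 and Cyp11a1 in none.

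MicroRNA genes with a hairpin sequence in RefSeq numbered 49 on the chromosome, of which 16 were LAD in siRif1 8-cell, 18 in siControl 8-cell, 24 in siRif1 4-cell and 17 in siControl 4-cell embryos. In the same order, LADs held 51.8%, 49.1%, 66.2% and 44.4% of its bins and 30.1%, 24.6%, 39.7% and 29.2% of its protein-coding genes. In no list were 25.9% of the bins and 49.8% of these genes. The microRNA counts are read beside these shares and are no separate result. In every list 9 were LAD, among them Mir34b and Mir34c, and 22 were in none, among them Mirlet7g. Mir34b and Mir34c are known to be induced by p53. The shared seed shown above belongs only to the products of Mir34b and Mir34c that are shown. The other product of the Mir34b hairpin has a different seed, GGCAGUG. The cluster of Mir100, Mirlet7a-2 and Mir125b-1 and the gene Mir128-2, inside Arpp21, were LAD in siControl 8-cell and siRif1 4-cell embryos and in neither of the other lists. Mir26a-1, inside Ctdspl, was LAD in siRif1 8-cell embryos alone. Mir190a, inside Tln2, and Mir138-1 were LAD in both 4-cell lists and in neither 8-cell list.

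Gene density was lower where more lists held a bin. It was 4.39 protein-coding genes per Mb in bins LAD in 4 lists, 6.02 in 3, 7.88 in 2, 12.03 in 1 and 18.98 in none. The corresponding densities on the other 18 autosomes were 4.79, 4.72, 5.08, 7.02 and 13.8 per Mb. Median gene length was 36.9 kb in bins LAD in every list and 15.0 kb in bins of no list. Promoter composition did not follow the same order on chromosome 9. By the bin of the gene's start, promoter windows had a median of 11 CpG sites where 4 lists held the bin, 8 where 3 did, 6 where 2 did, 13 where 1 did and 11 where none did. On the other 18 autosomes these medians were 6, 6, 5, 8 and 12. Genes near each other share bins and family history, so these values describe the chromosome and were not tested.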

How the data were processed

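LaminB1 DamID was deposited as 4 LAD lists, each made by the authors from the 3 replicates of a group, per the series design text. The submitters' processing notes name Trimmomatic, Bowtie2, SAMtools and Picard, with build mm10 (GRCm38). How LADs were called, and whether Dam alone was corrected for, is not given in the sources used here. Each deposited list gives LAD starts and ends on a 100-kb grid, and the deposited score field is 0 in every row and was not used. Coordinates are 1-based. Chromosome X is not analysed here. Bins, stretches, borders and genes were compared between lists with Python 3.11.15, pandas 2.3.3 and numpy 2.4.6, and the interval steps were tested on simulated lists. Genes are RefSeq protein-coding genes of GRCm38.p6 placed by midpoint, and 333 of 47042 autosomal entries were left out for coordinates out of order, 0 of them on chromosome 9. A stretch is a run of bins LAD in a single list of a pair. Named genes follow a rule written in the design: the 5 longest stretches in each direction with up to 4 of their longest genes, the longest LADs, the 10 longest genes and the members of 17 gene lists. The microRNA genes, the promoters shown, the runs of bins in all or no lists and a sixth stretch around Cadm1 were chosen after their values were seen. The members and lists were chosen with earlier results of these data known. Pooled lists allow no test, and depth is unknown. A few members of the gene lists are not reported here.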

Additional observations from a re-analysis of the deposited data

Results flagged for a closer look

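Chromosome 9 held 55 bins that were LAD in siRif1 alone at the 4-cell stage and in siControl alone at the 8-cell stage, so that the difference between siRif1 and siControl embryos ran in opposite directions at the 2 stages. These are 4.53% of its bins, and 2.86% of bins on the other 18 autosomes showed the same pattern. They include chr9:111900001-113200000 with Arpp21, chr9:109100001-109800000 with Fbxw genes and Plxnb1, and shorter runs with Pgr, Drd2 and Chek1. The reverse, LAD in siControl alone at the 4-cell and in siRif1 alone at the 8-cell stage, was found in 2 bins, at chr9:37500001-37600000 with Nrgn and at chr9:73100001-73200000 with Khdc3 (0.165%, compared with 0.848% elsewhere). Coverage of the chromosome also differed in direction between stages, by -14.4 points (8-cell minus 4-cell) in siRif1 embryos and by 4.77 points in siControl embryos. Both patterns rest on the 4-cell difference that chose the chromosome, so they largely restate that choice and are no separate result. The difference between stages was not tested, since each group is a pooled list.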

How the results depend on the processing

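Of 108 values under other settings for 38 results of chromosome 9, 101 stayed within 1.5 times of a count, within the 95% binomial interval of a coverage over bins (used as a yardstick, since neighbouring bins are not independent), within 1.5 times of a difference, or at the same rank, and 0 changed direction. Bridging gaps of up to 200 kb left all 38 values identical, since no gap on the chromosome is that short, and is not counted. The settings left out LADs under 300 kb, or used the span common to all lists (chr9:3300001-124100000), the span without 5 Mb at each end, and genes wholly or partly in LADs. The start of transcription in place of the midpoint for 1023 genes was a setting chosen after seeing the data. Counting stretches of at least 300 kb left 6 LAD in siControl 4-cell alone against siRif1 (18 in all), 16 in siControl 8-cell alone against siRif1 (30 in all), 24 in siControl 8-cell alone (38) and 19 in siControl 4-cell alone (31) between control stages, and 7 in siRif1 8-cell alone (13) between siRif1 stages, since short stretches drop out by construction. By megabases in place of points, chromosome 9 ranked 2 for siRif1 over siControl at the 4-cell stage and 6 at the 8-cell stage, because chromosomes differ in length. No paired analysis was possible because the deposited lists pool the replicates, and for the same reason no replicate could be left out.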
